A study of Homo sapiens with 4 samples.

Results

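Potassium channel and voltage-gated calcium channel genes were followed across 4 RNA-seq libraries of the cell line NCI-H1048, which was established from a human small cell lung cancer of the tuft cell-like kind. The genes were chosen by symbol alone: all KCN genes for pore-forming or auxiliary potassium channel subunits and all CACNA1, CACNA2D, CACNB and CACNG genes, with rows of the same symbol added together. This gave 121 genes of 35979 symbols, 95 of them for potassium channels and 26 for voltage-gated calcium channels. The libraries came from cells given COLCA2 gRNA 1, COLCA2 gRNA 2, a POU2F3 gRNA or a non-targeting gRNA, and the labels give their genotypes as COLCA2 knockout for the first pair, POU2F3 knockout and WT. The last is called the control library below. The COLCA2 libraries used different guides, and each of the other groups was 1 library. The labels do not say whether the libraries came from separate cultures or clones, so the spread between the COLCA2 guides (n = 2) was the only spread within a group and may be partly technical. The libraries with POU2F3 and COLCA2 guides were each set against that same library, so an error in that library enters all of those comparisons.

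Potassium channels let potassium leave the cell and hold or restore a negative membrane potential, while voltage-gated calcium channels open on depolarization and admit calcium, which triggers secretion and calcium-dependent signalling. Pore subunits carry the ion path, and auxiliary subunits set how many channels reach the membrane and how fast they open and close. Tuft cells are chemosensory epithelial cells in which receptor activation raises intracellular calcium, and POU2F3 is the transcription factor that specifies them. COLCA2 encodes a coactivator that works with POU2F3.

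The libraries held 21587741 to 29632382 recovered reads. POU2F3 itself had 14602 normalized counts in the control, 1449 under its own guide, and 3677 and 2351 under COLCA2 gRNA 1 and 2. COLCA2 had 5585 in the control, 3119 and 3541 under its own guides, and 1393 under the POU2F3 gRNA. The sum of 9 tuft markers was 46549 in the control library, including SOX9 at 17848 and the targeted POU2F3 at 14602. With COLCA2 gRNA 1, COLCA2 gRNA 2 and the POU2F3 gRNA the sums were 15195, 11267 and 9997. PTGS1 and CHAT were low in the control library, at 13.4 and 10.5. TRPM5, a calcium-activated cation channel that defines mature tuft cells, stood at 0.84 to 2.35 in every library. The sum of 6 neuroendocrine markers was 221 in the control library and 109 to 118 in the others, with CHGA at 0 in 2 libraries. INSM1 made up most of that gap, at 118 against 23.8 to 35.3, while CHGB stood at 17.6 to 27.0 and NEUROD1 at 2.52 to 12.9 over the 4 libraries. Among 3 immune markers CD3E was listed at 0 in all libraries and PTPRC stood at 8.29 to 16.2, while the sum was 88.8 with the non-targeting gRNA and 148 to 218 otherwise, nearly all of it CD68. The sum of 4 fibroblast markers was 1188 to 1477, with LUM at 14.3 in the control library against 123 to 233 in the others. Neuron markers (2 genes) summed to 54.9 to 65.9, endothelial markers (2) to 22.0 to 31.9 and muscle markers (3) to 5.88 to 10.4. The part of these shifts in the channel differences below was not tested, and in bulk RNA fewer cells of a kind and less RNA per cell cannot be told apart.

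Most channel genes were weakly expressed in this line. Of the 121 genes, 65 had a mean normalized count of at least 20 over the 4 libraries and entered the comparisons, and 56 did not. Of those 56, 10 were listed at 0 in every library, including KCNA1, KCNA3 and KCNA6 of the axonal and immune delayed rectifiers and CACNA1S, the pore of the skeletal muscle calcium channel. The other 46 had some reads, and 7 of them reached 20 in their highest library. The median of the mean normalized counts was 73.7 over the 65 channel genes, against 693.7 over all 14940 genes past the same minimum. Counting error therefore weighs more on the channel genes than on most genes.

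Per kilobase of the longest annotated transcript, the highest mean levels belonged to KCNAB3 (505), KCNK1 (492), CACNB3 (475), KCNS3 (303) and KCNH2 (234). KCNAB3 encodes a cytoplasmic beta subunit of voltage-gated potassium channels, KCNK1 a weakly inward-rectifying leak channel, CACNB3 the cytoplasmic beta subunit that brings high-voltage-activated calcium channels to the membrane, KCNS3 an electrically silent subunit that modifies other channels and KCNH2 the hERG channel of cardiac repolarization. CACNB3 had normalized counts of 2000, 1866, 1768 and 2018 in the control, COLCA2 gRNA 1, COLCA2 gRNA 2 and POU2F3 gRNA libraries. These were the closest to level of the 5, and CACNB3 made up 80.7% to 83.2% of the per-kilobase sum of the 4 CACNB genes. KCNAB3 stood at 1670 in the control library and at 1093, 1054 and 1152 in the same order of the others. KCNK1 ran the other way, at 798 against 1153, 1241 and 1059. KCNH2 stood at 1313, 1096, 900 and 698, and KCNS3 at 647, 637, 724 and 896. None of the 5 reached a 2-fold difference from the control library. KCNAB3 shares 252 exonic bases on the same strand with the protein-coding model AC104581.2, so its reads may be split between them.

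**Figure D1:**
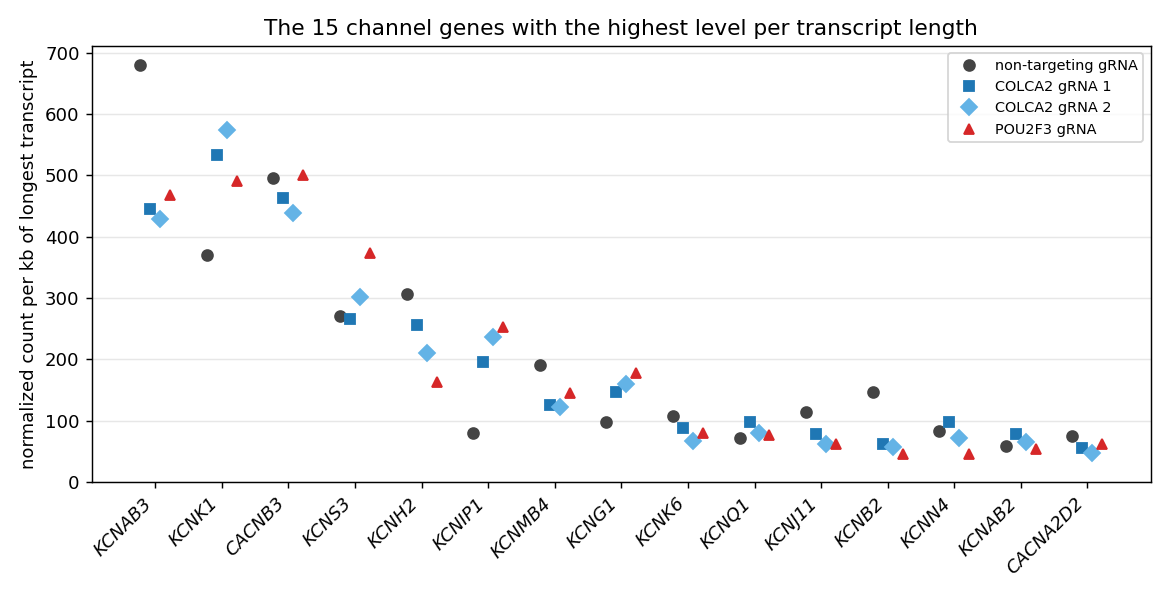
Normalized count per kilobase of longest transcript (vertical axis, linear) for the 15 channel genes with the highest mean, with 1 point for each library. KCNAB3, KCNK1 and CACNB3 lead in every library, KCNIP1 is lowest in the control library, and KCNB2 has its highest value there.

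With the POU2F3 gRNA, 8 of the 65 channel genes (12.3%) were at least 2-fold lower than in the control library, against 3.05% of all genes past the minimum, and 6 (9.23%) were at least 2-fold higher, against 6.73%. The lower genes included the voltage-gated potassium pores KCNB2, KCNC1, KCND2, KCNH7, KCNH8 and KCNQ3 and the T-type calcium channel gene CACNA1G. The higher genes were the potassium pores KCND3, KCNH5 and KCNJ8, the potassium auxiliary KCNIP1 and the calcium auxiliaries CACNA2D3 and CACNG4. With both COLCA2 guides, 4 channel genes (6.15%) were at least 2-fold lower, KCNB2, KCND2, KCNH7 and KCNQ3, against 2.02% of all genes. With both guides 5 (7.69%) were at least 2-fold higher, CACNA2D3, CACNG4, KCND3, KCNH5 and KCNIP1, against 5.79%. CACNG4 and KCNH5 were under 20 in the control library, so they passed the minimum through the COLCA2 and POU2F3 libraries, where they were higher. Both also count among the higher genes with the POU2F3 gRNA. Taken singly, COLCA2 gRNA 1 had 8 lower (3.19% of all genes) and 5 higher (6.44%), and COLCA2 gRNA 2 had 7 lower (3.64%) and 6 higher (7.25%). The 6 include KCNJ15, which passed the minimum of 20 through COLCA2 gRNA 2, where it was high. All 9 genes shared by the COLCA2 guides also passed with the POU2F3 gRNA, where 1.5% of all genes were lower and 4.89% higher in all 3 libraries. Channel genes differ from most genes in level, and among genes with a mean of at least 100 the counts were 2 of 30 (6.67%) in each direction for either target. The backgrounds there were 1.92% lower and 5.19% higher for the POU2F3 gRNA, and 1.46% and 4.77% for both COLCA2 guides. The 2 higher genes were CACNA2D3 and KCNIP1. CACNA2D3 stood at 24.8 in the control library and 84.8 with the POU2F3 gRNA. It passed the minimum of 100 through the COLCA2 libraries (156 and 146), where it was highest. All of these are counts past a fold with no replicate check. In edgeR's quasi-likelihood test on the recovered reads, the alternative method, 4 channel genes were lower and 4 higher for POU2F3 at an adjusted p of 0.05, against 3.98% and 8.45% of all genes. For COLCA2 6 were lower and 6 higher, against 7.51% and 11.4%. For both targets KCNAB3, KCNB2 and KCNQ3 were among the lower and CACNA2D3, KCNG1, KCNH5 and KCNIP1 among the higher. KCNH2 was lower for POU2F3 only by that threshold (adjusted p = 0.0167 against 0.109 for COLCA2), a difference between the targets that did not pass when tested itself (0.24).

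By their median the channel genes lay close to the control. Their median log2 ratio was -0.15 for POU2F3, -0.024 for COLCA2 gRNA 1 and 0.0030 for COLCA2 gRNA 2, against -0.0037, -0.0052 and -0.0017 over all genes. Of the 65 genes, 51 were past the 2-fold rule for neither target, against 13271 of all 14940 genes. That is a smaller share for the channel genes than for all genes. The channel genes were also lower in level (median of mean normalized counts 73.7 against 693.7). The share among genes of like level was not computed.

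**Figure D2:**
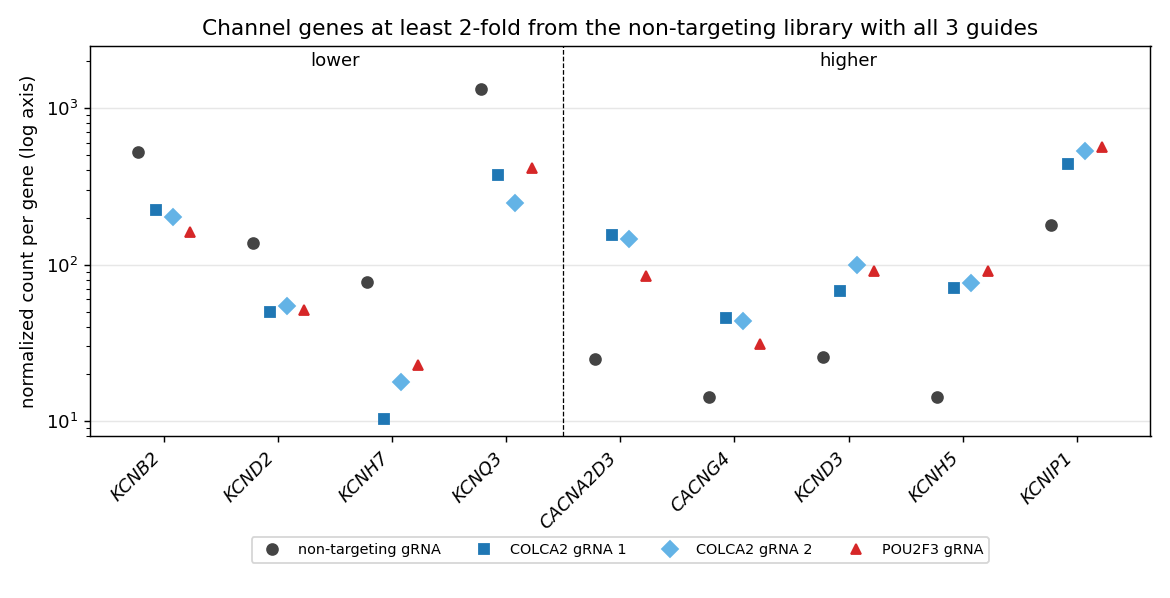
Normalized count (vertical axis, log scale) of the 9 channel genes at least 2-fold from the control library with all 3 guides, with 1 point for each library. For KCNB2, KCND2, KCNH7 and KCNQ3 the control library is the highest point, and for CACNA2D3, CACNG4, KCND3, KCNH5 and KCNIP1 it is the lowest.

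The promoters of 88 of the 121 genes were found in RefSeq (GRCh38.p14), as 136 windows from 250 bases before to 50 after a transcript start. POU2F3 belongs to the POU factors, which bind the octamer ATGCAAAT. On either strand that octamer was in 3 of the 136 windows (2.21%), against 623 of 35116 windows of all genes (1.77%). The 3 belonged to KCNN3 with 2 copies, KCNAB2 with 1 copy 108 bases before its start, read as ATTTGCAT, and KCNA10, a gene listed at 0 in every library. None of the 3 was among the genes at least 2-fold lower or higher, which KCNA10 at 0 could not be. Channel genes outside the 88 were not searched. The 7-letter form ATGCAAA, which is part of the octamer and was chosen after the sequences were seen, was in 5 of 136 windows (3.68%) against 4.46% of all, and KCNIP1 had it 241 bases before its start. The 4 sequences below are the 250 bases before the start of KCNN3, with both octamers, of KCNIP1, of KCND2 from the lower genes and of KCNH5 from the higher genes. They overlap no exon of GENCODE release 29. Capitals mark the octamers in KCNN3, the 7-letter match in KCNIP1, and CG dinucleotides in KCND2 and KCNH5. Positions are chr1:154859877-154860126 (minus strand), chr5:170353237-170353486 (plus), chr7:120272925-120273174 (plus) and chr14:63045459-63045708 (minus).
KCNN3: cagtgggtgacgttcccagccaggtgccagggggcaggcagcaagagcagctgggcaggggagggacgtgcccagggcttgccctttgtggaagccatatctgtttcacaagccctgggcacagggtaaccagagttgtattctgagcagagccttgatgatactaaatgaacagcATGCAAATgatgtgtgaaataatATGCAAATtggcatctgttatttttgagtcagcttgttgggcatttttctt
KCNIP1: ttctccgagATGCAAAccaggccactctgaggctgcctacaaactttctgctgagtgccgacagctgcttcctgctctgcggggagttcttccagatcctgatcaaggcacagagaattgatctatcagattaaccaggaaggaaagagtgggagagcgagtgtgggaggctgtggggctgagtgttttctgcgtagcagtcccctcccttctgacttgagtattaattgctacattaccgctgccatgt
KCND2: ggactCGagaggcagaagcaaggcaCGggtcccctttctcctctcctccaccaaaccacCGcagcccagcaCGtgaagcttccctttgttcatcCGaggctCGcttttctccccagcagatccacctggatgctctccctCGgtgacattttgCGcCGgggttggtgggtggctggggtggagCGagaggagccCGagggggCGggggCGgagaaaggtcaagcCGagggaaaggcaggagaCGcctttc
KCNH5: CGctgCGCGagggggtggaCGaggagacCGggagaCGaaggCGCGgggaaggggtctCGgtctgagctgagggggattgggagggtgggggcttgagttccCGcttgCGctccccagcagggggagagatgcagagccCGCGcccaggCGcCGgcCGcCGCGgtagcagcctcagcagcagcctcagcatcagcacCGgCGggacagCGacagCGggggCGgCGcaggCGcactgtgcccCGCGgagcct
The KCNN3 octamers lie 74 and 51 bases before a start inside the gene span. The KCNH5 window has 27 CG dinucleotides and 74% G+C and the KCND2 window 15 and 63.6%, while the KCNN3 and KCNIP1 windows have 2 and 6, with 50.4% and 52% G+C. The median over all promoters was 11 CG dinucleotides and 58% G+C, and over the channel promoters 15 and 64.4%. A match in these letters is a description and not a bound site.

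KCNQ3, a pore subunit of the M-current that damps repeated firing, was the most abundant of the lower genes. It reached 1336 normalized counts in the control library, 372 under COLCA2 gRNA 1, 249 under COLCA2 gRNA 2 and 413 under the POU2F3 gRNA. The control library stood apart from the other 3. The log2 ratio was -1.69 with the POU2F3 gRNA and -2.13 ± 0.41 (SD, n = 2) with the COLCA2 guides. The POU2F3 library kept 30.9% of the control level, with exact 95% limits of 27.8% and 34.3% for counting error alone. With edgeR the adjusted p was 0.00659 for POU2F3 and 0.000911 for COLCA2. The single residual degree of freedom of that test is the difference between the COLCA2 guides, and the POU2F3 p-values rest on it too.

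KCNQ5 and KCNQ1 of the same family were not alike. KCNQ5, another M-current subunit, missed the minimum of 20 but had 66 reads in the control library against 4, 1 and 1 with COLCA2 gRNA 1, COLCA2 gRNA 2 and the POU2F3 gRNA. These were 6.58%, 1.87% and 1.33% of the control level after normalization, with exact upper 95% limits of 17.7%, 10.8% and 7.68%. KCNQ1, the epithelial and cardiac member, stayed at 233, 317, 260 and 248. The per-kilobase sum of the family was 0.666, 0.525 and 0.548 times the control sum with COLCA2 gRNA 1, COLCA2 gRNA 2 and the POU2F3 gRNA. KCNQ3 made up 51.7% of it in the control library and 18.4% to 29.2% in the others, while KCNQ1 made up 32.0% against 62.1% to 68.0%.

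KCNB2, a delayed rectifier pore, had normalized counts of 525 in the control library, 222 and 201 with COLCA2 gRNA 1 and 2, and 161 with the POU2F3 gRNA. All 3 edited libraries were below the control and the guides lay close together. The log2 ratio was -1.70 with the POU2F3 gRNA and -1.31 ± 0.10 (SD, n = 2) with the COLCA2 guides, with edgeR adjusted p of 0.00372 and 0.00357.

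Genes of the ether-a-go-go family (KCNH) differed in both directions. KCNH7, an erg-type channel, stood at 77.3 in the control library, at 10.4 and 17.6 with COLCA2 gRNA 1 and 2 and at 22.7 with the POU2F3 gRNA. KCNH5, an eag-type channel (chr14:62699454-63102037, minus strand), stood at 14.3, 70.5, 76.4 and 91.5 in the same order. In neither gene did the control value overlap the other 3. The log2 ratio of KCNH7 was -1.73 with the POU2F3 gRNA and -2.43 ± 0.51 (SD, n = 2) with the COLCA2 guides. That of KCNH5 was 2.59 with the POU2F3 gRNA and 2.28 ± 0.081 (SD, n = 2) with the COLCA2 guides. KCNH5 passed edgeR for both targets (adjusted p = 0.0129 and 0.0126), and KCNH7 for COLCA2 (0.014) but not for POU2F3 (0.0903). KCNH8, an elk-type channel, stood at 71.6, 21.8, 38.8 and 32.7, and was 2-fold lower with COLCA2 gRNA 1 (-1.67) and the POU2F3 gRNA (-1.11) but not with COLCA2 gRNA 2 (-0.87). KCNH2 held 66.9% to 79.3% of the per-kilobase sum of the family in every library. KCNH7 shares 189 exonic bases with GCA on the opposite strand, and the use of strand in counting is not given in the sources used here.

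The Kv4 pore genes, which carry the fast A-type potassium current, differed from the control in opposite directions. KCND2 (chr7:120273668-120750331, plus strand) had normalized counts of 138 in the control library, 49.8 and 54.1 with COLCA2 gRNA 1 and 2, and 51.2 with the POU2F3 gRNA. KCND3 (chr1:111770662-111989155, minus strand) had 25.8, 67.4, 98.8 and 90.6. The 3 edited libraries were close together in KCND2 and all above the control in KCND3. The log2 ratio of KCND2 was -1.42 with the POU2F3 gRNA and -1.40 ± 0.084 (SD, n = 2) with the COLCA2 guides. For KCND3 it was 1.77 with the POU2F3 gRNA and 1.62 ± 0.39 (SD, n = 2) with the COLCA2 guides. With edgeR both passed for COLCA2 (adjusted p = 0.0264 and 0.0407) and neither for POU2F3 (0.0617 and 0.0546). Of the per-kilobase sum of the 3 KCND genes, KCND2 made up 71.5% in the control library and 29.6%, 31.5% and 34.4% in COLCA2 gRNA 1, COLCA2 gRNA 2 and POU2F3 gRNA. KCND3 made up 9.59% against 28.9%, 41.4% and 43.9%. The summed level itself was 0.868, 0.887 and 0.768 times that of the control library.

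Kv4 pores work with Kv channel-interacting proteins, which bind calcium and bring the pores to the membrane, and with dipeptidyl peptidase-like proteins, which speed their gating. KCNIP1 (chr5:170353487-170736632, plus strand) had normalized counts of 180 in the control library, 440 and 533 with COLCA2 gRNA 1 and 2, and 568 with the POU2F3 gRNA. Every edited library was above the control. The log2 ratio was 1.65 with the POU2F3 gRNA and 1.42 ± 0.20 (SD, n = 2) with the COLCA2 guides, with edgeR adjusted p of 0.00336 and 0.00332. KCNMB1, a BK channel auxiliary whose gene lies within the KCNIP1 span on the other strand, stood at 50.6, 70.5, 60.0 and 53.7. KCNIP3 was within 2-fold, at 146, 193, 206 and 232, and KCNIP2 was low, at 27.7, 20.7, 12.9 and 19.3. The per-kilobase sum of the KCNIP family was 1.93, 2.24 and 2.47 times the control sum with COLCA2 gRNA 1, COLCA2 gRNA 2 and the POU2F3 gRNA. DPP6, listed here as a partner, stood at 64.9, 19.7, 31.8 and 31.9, at log2 ratios of -1.67 and -1.01 for the COLCA2 guides and just past 2-fold for POU2F3. DPP10, its more abundant relative, stood at 433, 471, 446 and 559.

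**Figure D3:**
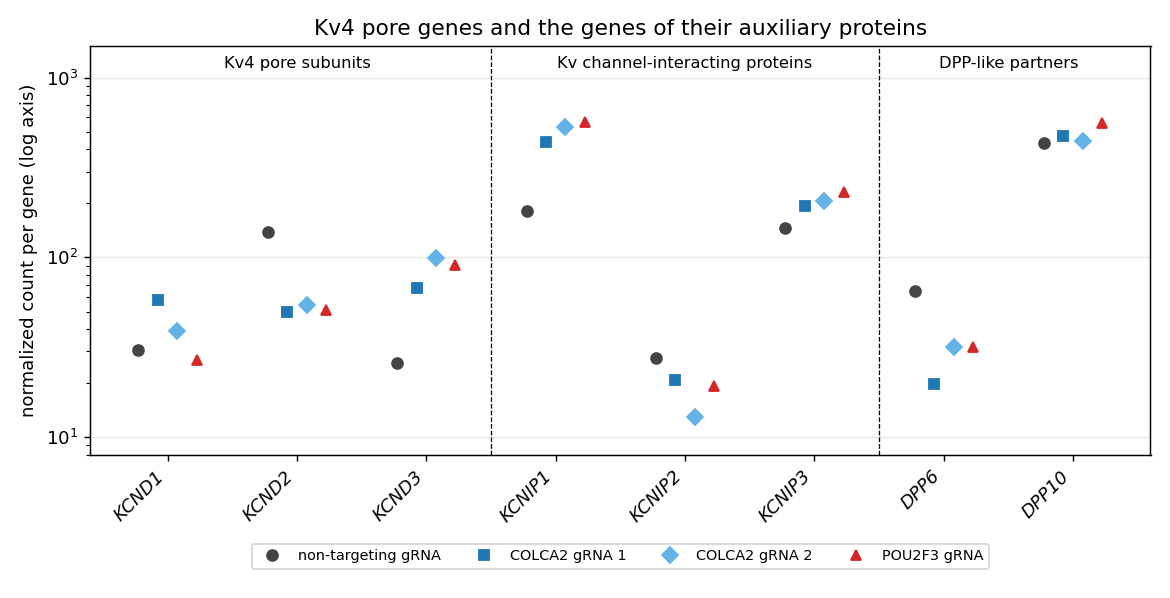
Normalized count (vertical axis, log scale) of the Kv4 pore genes KCND1 to KCND3, the KCNIP genes and the dipeptidyl peptidase-like genes DPP6 and DPP10, with 1 point for each library. KCND2 and DPP6 are highest in the control library (138 and 64.9), while KCND3 and KCNIP1 are lowest there (25.8 and 180).

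KCNC1, a fast delayed rectifier pore of rapidly firing neurons, divided the COLCA2 guides. Its normalized count was 41.1 in the control library, 37.3 under COLCA2 gRNA 1, 17.6 under COLCA2 gRNA 2 and 11.8 under the POU2F3 gRNA, from 43, 36, 15 and 14 reads. COLCA2 gRNA 1 was near the control library and COLCA2 gRNA 2 near the POU2F3 library. The guides were at least 2-fold apart in 2 channel genes, KCNC1 and KCNJ15, against 2.22% of all genes in either direction. KCNJ15, an inward rectifier, stood at 11.5, 23.8, 88.2 and 21.0, so COLCA2 gRNA 2 alone was high. The silent subunit gene KCNG1 stood at 362, 548, 596 and 661, within 2-fold but with edgeR adjusted p of 0.0159 for POU2F3 and 0.0237 for COLCA2.

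Over all 23 voltage-gated potassium pore genes past the minimum (of 40), the median log2 ratio was -0.18 for POU2F3, -0.056 for COLCA2 gRNA 1 and 0.0030 for COLCA2 gRNA 2. With the POU2F3 gRNA 7 of the 23 were at least 2-fold lower and 2 higher, and with both COLCA2 guides 4 were lower and 2 higher. Over all genes the shares were 3.05% lower and 6.73% higher for POU2F3, and 2.02% and 5.79% for both COLCA2 guides. The per-kilobase sum of the group was 0.853, 0.833 and 0.855 times the control sum with COLCA2 gRNA 1, COLCA2 gRNA 2 and the POU2F3 gRNA.

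**Figure D4:**
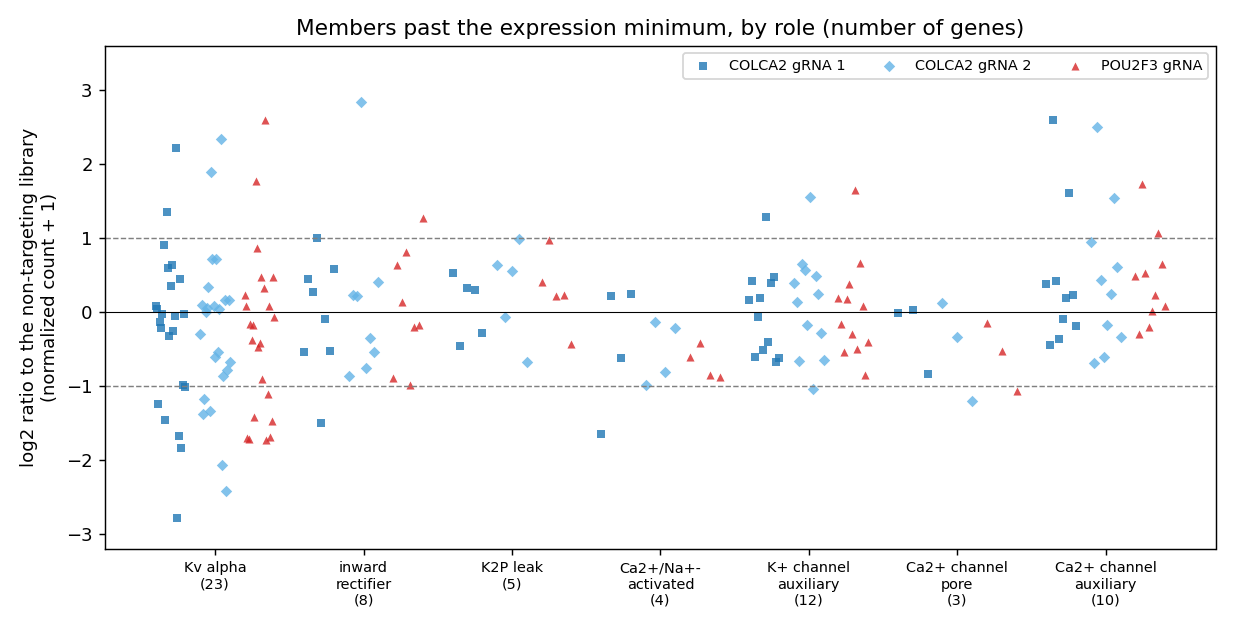
log2 ratio to the control library (vertical axis, normalized count + 1) of the 65 channel genes past the minimum, grouped by role, with 1 point for each gene and edited library. Dashed lines mark 2-fold. The voltage-gated potassium pores (Kv alpha) hold 7 of the 8 genes below the lower line with the POU2F3 gRNA, and points of every role lie on both sides of 0.

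Among the 8 inward rectifier genes past the minimum (of 16), KCNJ8 alone was at least 2-fold from the control library with the POU2F3 gRNA. KCNJ8 encodes the pore of a potassium channel closed by ATP and stood at 33.4, 50.8, 44.7 and 82.3 in the control, COLCA2 gRNA 1, COLCA2 gRNA 2 and POU2F3 gRNA libraries. The POU2F3 library was the highest (log2 ratio 1.27) and the COLCA2 guides gave 0.59 and 0.41. KCNJ11, which encodes the other ATP-closed pore and was the most abundant inward rectifier per kilobase, stood at 319, 219, 175 and 171. Its log2 ratio of -0.89 with the POU2F3 gRNA did not reach 2-fold. The regulatory subunits of these pores, ABCC8 and ABCC9, stood at 105 to 156 and 210 to 256. KCNJ4, at 54.4, 18.7, 31.8 and 26.9, did not reach 2-fold with the POU2F3 gRNA (-0.99) and was past it with COLCA2 gRNA 1 (-1.50) but not with COLCA2 gRNA 2 (-0.76).

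Leak channels of the K2P kind set the resting potential. None of the 5 past the minimum (of 15) was at least 2-fold from the control library in the POU2F3 library or with both COLCA2 guides, and their medians were 0.23 for POU2F3, 0.30 for COLCA2 gRNA 1 and 0.55 for COLCA2 gRNA 2. The per-kilobase sum was 1.25, 1.28 and 1.36 times the control sum in the same order, with KCNK1 at 69.0% to 78.7% of it. KCNK6, a relative of KCNK1, stood at 613, 503, 385 and 455. KCNK2, a leak channel opened by membrane stretch and lipids, had a normalized count of 116 in the control library, 84.0 and 111 with COLCA2 gRNA 1 and 2, and 227 with the POU2F3 gRNA. The POU2F3 library was above all the others, and the COLCA2 guides were at or below the control.

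No calcium-activated KCNN gene reached the 2-fold rule for either target. KCNN3, whose promoter holds the 2 octamers, stood at 102 in the control library, 66.4 and 57.6 with COLCA2 gRNA 1 and 2, and 56.2 with the POU2F3 gRNA. Its log2 ratios were -0.62, -0.82 and -0.85, all on the lower side of 0 and short of 2-fold. KCNAB2, the beta subunit gene with 1 octamer, stood at 252, 337, 278 and 226, with its highest value in COLCA2 gRNA 1. KCNN1, a small-conductance channel, stood at 119, 37.3, 60.0 and 78.1, at least 2-fold lower with COLCA2 gRNA 1 alone (-1.65). KCNN4, the intermediate-conductance channel of epithelial and immune cells, stood at 185, 220, 159 and 101, lowest with the POU2F3 gRNA (-0.87). The medians of the 4 genes past the minimum in this class (of 8) were -0.73 for POU2F3, -0.20 for COLCA2 gRNA 1 and -0.52 for COLCA2 gRNA 2. KCNMA1, the large-conductance BK pore, missed the minimum, with 2 reads in the control library and 14, 20 and 18 in the others. KCNMB4, the BK auxiliary subunit that slows gating, was far more abundant, at normalized counts of 905, 590, 576 and 685.

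Calcium channel pores were few. Of the 10 CACNA1 genes, 3 passed the minimum: CACNA1A and CACNA1D, for P/Q-type and L-type channels, and CACNA1G. CACNA1G, a T-type pore that opens near the resting potential, stood at 82.1 in the control library, 45.6 and 35.3 with COLCA2 gRNA 1 and 2, and 38.6 with the POU2F3 gRNA. The control library was the highest, and the log2 ratio was -1.07 with the POU2F3 gRNA and -1.02 ± 0.26 (SD, n = 2) with the COLCA2 guides, of which gRNA 1 alone (-0.83) missed 2-fold. Its edgeR adjusted p was 0.197 for POU2F3 and 0.124 for COLCA2, and it shares 309 exonic bases with an antisense gene. CACNA1A was level, at 260, 258, 282 and 233, and CACNA1D stood at 153, 157, 121 and 106.

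Of the 10 calcium channel auxiliaries past the minimum, 2 were at least 2-fold higher for either target, against 6.73% of all genes for POU2F3 and 5.79% for both COLCA2 guides, and none was at least 2-fold lower. CACNA2D3 (chr3:54122547-55074557, plus strand) encodes an extracellular alpha2delta subunit that helps place calcium channels at the surface. Its normalized count was 24.8 in the control library, 156 and 146 with COLCA2 gRNA 1 and 2, and 84.8 with the POU2F3 gRNA. The control library was the lowest and the COLCA2 guides the highest. The log2 ratio was 1.73 with the POU2F3 gRNA and 2.55 ± 0.065 (SD, n = 2) with the COLCA2 guides, with edgeR adjusted p of 0.0292 and 0.00355. Of the per-kilobase sum of CACNA2D1 to CACNA2D3, CACNA2D3 made up 5.75% in the control library and 29.4%, 25.6% and 17.2% in COLCA2 gRNA 1, COLCA2 gRNA 2 and POU2F3 gRNA. CACNA2D2 made up 64.0% against 38.3%, 30.0% and 45.5%. CACNA2D1, the widely expressed form, stood at 269, 350, 520 and 379. CACNA2D3 shares 122 exonic bases with its antisense gene CACNA2D3-AS1.

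CACNG4 (chr17:66964910-67033398, plus strand) encodes a gamma-type subunit that also acts as an auxiliary of AMPA glutamate receptors. It stood at 14.3 in the control library, 45.6 and 43.5 with COLCA2 gRNA 1 and 2, and 31.1 with the POU2F3 gRNA, from 15, 44, 37 and 37 reads. All 3 were above the control library, at log2 ratios of 1.57 ± 0.047 (SD, n = 2) with the COLCA2 guides and 1.06 with the POU2F3 gRNA. Neither passed edgeR (adjusted p = 0.0636 and 0.252). CACNG4 was under 20 in the control library, so it passed the minimum through the COLCA2 and POU2F3 libraries. Its neighbour on the same chromosome, CACNG5, was within 2-fold at 34.4, 40.4, 52.9 and 54.6.

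Setting the POU2F3 library against the COLCA2 libraries directly, no channel gene was at least 2-fold lower than with each COLCA2 guide, against 0.924% of all genes. With edgeR no channel gene passed as lower there, and few of all genes did. KCNK2 was the 1 gene at least 2-fold higher, against 0.442% of all genes. The POU2F3 library had 2.71 times the KCNK2 level of COLCA2 gRNA 1 (exact 95% interval 2.11 to 3.52) and 2.06 times that of COLCA2 gRNA 2 (1.62 to 2.63). With edgeR no channel gene passed in that direction, KCNK2 included, against 0.107% of all genes. The 9 shared genes were within 2-fold of both guides in the POU2F3 library, apart from KCNH7, which was 1.06 higher on the log2 scale than with COLCA2 gRNA 1.

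**Figure D5:**
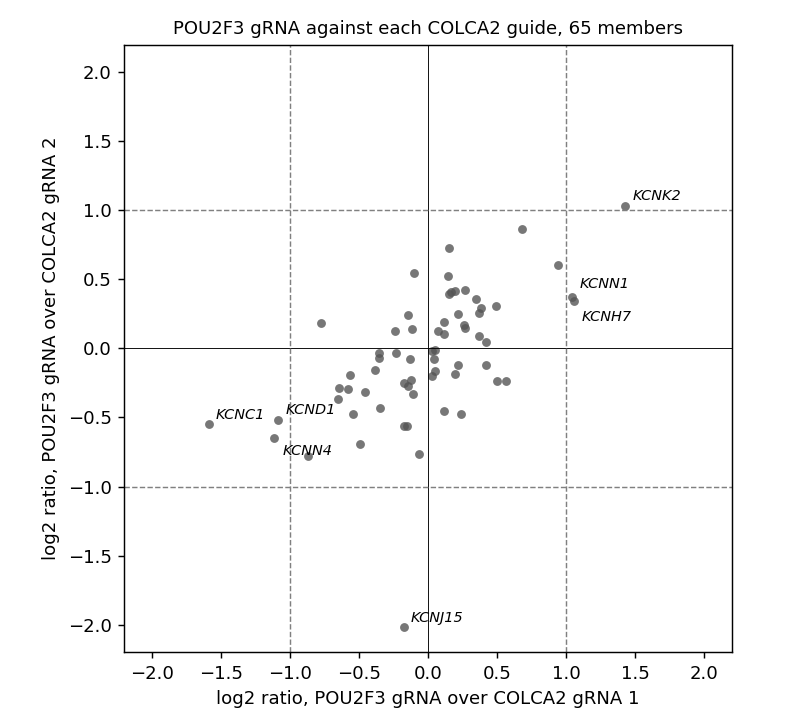
log2 ratio of the POU2F3 gRNA library over COLCA2 gRNA 1 (horizontal axis) and over COLCA2 gRNA 2 (vertical axis) for the 65 channel genes, which share the POU2F3 library on both axes. Dashed lines mark 2-fold. KCNK2 is the only gene past 2-fold on both axes, at 1.43 and 1.03.

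Of 34 genes outside the symbol rule whose products bind or regulate these channels, 25 passed the minimum. With the POU2F3 gRNA 2 were at least 2-fold lower, DPP6 and SGK1, and 1 was higher, STAC2. With both COLCA2 guides DPP6 was lower and STAC2 higher. The shares over all genes were 3.05% lower and 6.73% higher for POU2F3, and 2.02% and 5.79% for both COLCA2 guides. STAC2, an adaptor that keeps L-type calcium channels at the membrane and slows their inactivation, stood at 316 in the control library, 2362 and 2581 with COLCA2 gRNA 1 and 2, and 2683 with the POU2F3 gRNA. The edited libraries were all far above the control, at log2 ratios of 2.96 ± 0.091 (SD, n = 2) for the COLCA2 guides and 3.08 for the POU2F3 gRNA. SGK1, a kinase that raises the surface level of several potassium channels, stood at 713, 369, 398 and 317. The medians over the 25 were 0.13 for POU2F3, 0.10 for COLCA2 gRNA 1 and 0.084 for COLCA2 gRNA 2. The store-operated calcium entry genes ORAI1 to ORAI3, STIM1 and STIM2 were within 2-fold in all 3 libraries.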

How the data were processed

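Poly(A) RNA of NCI-H1048 was sequenced in 4 libraries, and the groups follow the labels. The submitters' processing notes name Salmon, DESeq2 and hg38, and further settings are not given in the sources used here. Per the file headers, the authors deposited a normalized count for each gene, a linear signal with no logarithm taken. In every library 100% of values were whole multiples of 1 step (tolerance 1e-06), so whole reads were recovered, and estimated counts may have been rounded earlier. Total reads were 25435970 for the non-targeting library and, for COLCA2 gRNA 1, COLCA2 gRNA 2 and POU2F3 gRNA, 24668649, 21587741 and 29632382.

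Rows of the same symbol were summed (38145 rows, 35979 symbols). Among the channel genes 4 symbols had 2 rows. Genes with a mean of at least 20 were kept (14940), ratios are log2(normalized count + 1), and such ratios understate changes of low genes. With 1 library in the POU2F3 and non-targeting groups, a 2-fold rule without a test was used. For COLCA2 both guides had to pass. Exact Clopper-Pearson 95% intervals cover counting error only. Levels between genes are per kilobase of the longest GENCODE release 29 transcript, matched for 120 of 121 genes. Promoters are RefSeq GRCh38.p14.

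As an alternative, edgeR 4.0.16 (R 4.3.3) ran a quasi-likelihood test with TMM and Benjamini-Hochberg adjustment over all 14940 genes, with 1 residual degree of freedom. It was tested on simulated data. It called 595 lower and 1263 higher for POU2F3, 1122 and 1709 for COLCA2. Its p-values rest on the spread between the COLCA2 libraries, which the test partly pools over all genes, and on no other replicates. Other scalings, pseudocounts, minimums and folds, and leaving out each guide, were also tried.

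The channel genes, partners and marker lists were chosen with earlier results of these data known. Named genes are those past the 2-fold rule, the 10 highest by mean and 5 highest per kilobase, and genes under the minimum that reach 20 in a library. Some genes that meet this rule are not reported here. Family relatives of the named genes, members beside a named gene in role or position, KCNN and octamer genes were named after their values were seen.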

Additional observations from a re-analysis of the deposited data

Results flagged for a closer look

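KCNK2, the leak channel gene opened by stretch, was singled out because its ratio to the non-targeting library had opposite signs for the targets. The log2 ratio was 0.97 with the POU2F3 gRNA, against -0.46 and -0.063 with COLCA2 gRNA 1 and 2. The reads were 271 with the POU2F3 gRNA, 121 with the non-targeting gRNA, and 81 and 94 with the COLCA2 guides. With 1 POU2F3 library the difference was not tested against replicates of POU2F3. In edgeR's quasi-likelihood test, which borrows the spread of the COLCA2 guides, the adjusted p was 0.155.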

How the results depend on the processing

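The limits are 1 library for the POU2F3 and non-targeting groups, a control shared by all ratios, and low depth on these genes, with a median of 92 reads per library for those past the minimum. No paired analysis was possible because the POU2F3 and non-targeting groups hold 1 library each and share fewer than 2 replicate numbers with COLCA2. Of 87 recomputed summary values, 56 stayed near the reported ones, 29 moved and 2 changed sign. The list medians moved to -0.19 for POU2F3 and -0.079 for COLCA2 with equal library totals, and to -0.19 and -0.055 with upper quartile scaling. Under these scalings the all-gene median shifted by no more than 0.069 on the log2 scale, and 29 of 30 named genes kept the sign of all 3 ratios under every scaling. The exception was CACNB3, whose POU2F3 ratio ran from -0.023 to 0.025. With a pseudocount of 10 the count above each COLCA2 guide was 0. With no minimum (121 genes) the counts were 19 lower and 20 higher for POU2F3, 11 and 16 for both COLCA2 guides, and 6 and 6 against each guide, and the POU2F3 median was 0. With a minimum of 100 (30 genes) they were 2 and 2 for POU2F3 and 2 and 2 for COLCA2, with medians of -0.070 and 0.013, the latter a change of sign. Of the 2 higher genes there, CACNA2D3 passed that minimum through the COLCA2 libraries, where it was highest. At 4-fold the counts were 0 and 1 for POU2F3, 1 and 2 for COLCA2, and 0 higher against each guide. With edgeR fewer channel genes were lower for POU2F3 than by the 2-fold rule, and none was above COLCA2. Leaving out one COLCA2 guide gave 7 to 8 genes lower with COLCA2, 1 to 3 lower and 1 to 3 higher in the direct comparison, and COLCA2 medians of -0.024 to 0.0030, the last a change of sign without gRNA 1. Without COLCA2 gRNA 1 the COLCA2 count of lower genes was 7, and without COLCA2 gRNA 2 it was 8, against 4. With a guide left out the rule asks for 1 guide and not both. Such counts, also in the direct comparison, could therefore only stay or rise. Shares over all genes were not computed with no minimum, at 4-fold or for a single guide in the direct comparison. Those counts therefore have no background to be read against. Of 60 values of named genes, a pseudocount of 0.1 moved 1 and a pseudocount of 10 moved 9. Leaving out a guide moved none.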

Other observations

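Channel genes under the expression minimum held further differences that rest on few reads. KCNMA1, the BK pore, had normalized counts of 1.91 in the control (non-targeting) library and 14.5, 23.5 and 15.1 under COLCA2 gRNA 1, COLCA2 gRNA 2 and the POU2F3 gRNA. LRRC55, which encodes an auxiliary of the BK channel, stood at 1.91, 23.8, 15.3 and 15.9 in that order. In both genes the control library was the lowest, with 2 reads each. KCNJ13, an inward rectifier of transporting epithelia, stood at 2.86, 13.5, 21.2 and 18.5, again lowest in the control library. It shares 722 exonic bases with GIGYF2 on the opposite strand. The ratio of the POU2F3 library to the non-targeting one was 7.91 for KCNMA1 (exact 95% interval 1.89 to 70.3) and 6.45 for KCNJ13 (1.94 to 33.6).

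Other genes of this kind split the libraries. CACNA2D4, an alpha2delta gene, stood at 0.95 in the control library, 5.18 and 27.0 under COLCA2 gRNA 1 and 2, and 16.8 with the POU2F3 gRNA, so the guides lay far apart. KCNJ10, an inward rectifier of glia and transporting epithelia, was high with the POU2F3 gRNA alone, at 24.3 against 5.73 to 8.23. KCNK7 was highest with COLCA2 gRNA 2, at 29.4 against 5.04 to 12.4. KCNQ5 was the only gene of these 7 with its highest value in the control library.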
